A study of Mus musculus with 30 samples.

Results

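Bone marrow-derived dendritic cells lacking Irf4 in CD11c-expressing cells were compared with Cre-only controls after 6 h of lipopolysaccharide (LPS), on 10 of the 30 arrays of the study. The arrays were chosen by their labelled genotype and time alone: 5 from CD11c-Cre IRF-4 flox/flox mice, called knockout here, and 5 from CD11c-Cre mice, called control. All 10 were of C57BL/6 background, so the controls carried the Cre transgene as well and the groups differed in the floxed Irf4 alleles. The other 20 arrays hold the same genotypes without stimulation and after 24 h of LPS. Because Cre is driven by CD11c, deletion depends on cells having turned that promoter on, and CD11c+ cells were purified with magnetic beads after stimulation. Animal age, sex and LPS dose are not given in the sources used here, nor is whether a replicate was a mouse or a culture, so each p-value rests on the spread among these arrays, which may be technical. Each array set the sample, labelled with Cy5, against 1 pooled mouse reference RNA, labelled with Cy3, and every level below is a log2 ratio of sample over reference. A level is therefore compared only with the same gene's level in other samples.

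IRF4 belongs to the interferon regulatory factors, transcription factors named for their first targets, and binds DNA weakly alone and pairs with the ETS factor PU.1 or with AP-1 and BATF proteins at composite sites. In dendritic cells it is known for supporting the conventional subset that presents antigen on MHC class II and migrates to lymph nodes. LPS is sensed by TLR4, whose MyD88 arm turns on cytokine and chemokine genes through NF-kB and whose TRIF arm turns on interferon beta and interferon-stimulated genes.

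Of 41174 probes, 22951 could be named, for 16358 genes, and 11250 genes were bright enough to be tested. The median Cy5 signal of the 10 arrays ran from 101 to 147, and the number of arrays, 5 a group, limits the precision. Replicate arrays differed from each other by at least 4.53 times what repeated spots of 1 array differ by, so no file was a second copy of another. Whether any of them shared RNA was not tested. Itgax, which encodes CD11c, was well above background on all 10 arrays, at 4.06 to 4.61 in knockout and 3.53 to 4.32 in control cells. Of the 28 genes on the array from a list of dendritic cell lineage genes, 23 were above background on all 10 arrays and 2 on none.

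Control replicate 3 stood apart from its label. Over 1097 genes that LPS changed in knockout cells, the slope of this array's change from unstimulated control cells on the knockout change was -0.03, against 0.69 to 0.85 for the other 4 control arrays. Its nearest array of the 30 was an unstimulated control. It was also the only 6 h array on a slide that was scanned later than the rest. Folds and counts below are given with this array and, after them, without it. A fold in brackets directly after another is the value without it. Of the genes described below, Inhba, Cxcl3, Irf1, Irf5, S100a8, Xbp1, Gbp6, Gbp8 and Nfkbiz were called with this array and not without it. No slide held both genotypes at 6 h. A fit with the slide as a fixed block ties the knockout 6 h group to the others only through knockout replicate 1, which shares its slide with unstimulated knockout arrays.

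Irf4 itself separated the groups on every array. Its log2 ratios were -0.31, -0.11, -0.20, 0.41 and -0.34 in knockout cells and 2.44, 2.55, 2.13, 2.42 and 1.99 in control cells. The lowest control lay above the highest knockout array, and control replicate 3, at 2.13, lay with its group. The difference was -2.42, or 5.34-fold lower (5.50-fold without control replicate 3), with a two-sided exact permutation p of 0.00794, the smallest that 5 arrays against 5 allow. The probe was well above background on all 5 knockout arrays. The sources used here do not say whether it lies inside the floxed stretch, so residual signal on it does not show how complete the deletion was.

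Irf4 deletion was accompanied by 1361 genes past a Benjamini-Hochberg adjusted p of 0.05 in limma, 12.1% of those tested, with 700 higher (6.22%) and 661 lower (5.88%) in knockout cells. Called genes that also differed at least 2-fold numbered 444 (3.95%), 242 higher (2.15%) and 202 lower (1.80%). All 5 knockout arrays lay above all 5 control arrays for 532 genes (4.73%) and below them for 510 (4.53%), 1042 in all (9.26%), and they lay apart from the 4 other controls for 1548 (13.8%). Without control replicate 3, 1398 genes passed (12.4%), 668 higher (5.94%) and 730 lower (6.49%), and 1086 passed both ways. The median difference over all genes was -0.01. Centring each array on its median in place of the within-array loess fit moved that median to -0.11 and gave 328 higher and 477 lower, so the even split is tied to the scaling. With the slide as a random block 1033 genes passed, and Cxcl3, Irf5, Gimap5, H2-Aa, S100a8 and Xbp1 were not among them. With the slide as a fixed block 1205 passed, and only 336 of the 1361 were among them with the same sign, where Irf4 itself had a difference of -1.96 and an adjusted p of 0.0906. Of the genes described below, the fixed slide block also ended the calls of Spp1, Csf2, Inhba, Ptgs2, Pla2g4a, Trem2, Stk38l, Smurf2, Ciita, H2-DMa, H2-DMb2, H2-Aa, Cbfa2t3, Dpp4, Batf3, Map3k14, Ccl24, Adam8, Ngp, S100a8, Alox15, Gimap5, Irf5, Ndufa5, Pdcd1lg2, Slc7a11, Ctso, Ifitm1 and Nfkbiz. The fit of the 10 arrays alone called 723 genes and ended the calls of Ctsl, Irf1, Irf5, H2-Aa, Batf3, Ndufa5, Xbp1, Icosl, Slc7a11, Ccrl2, Gbp6, Gbp8, Ifitm1 and Nfkbiz, beside those given with the chemokines and Ptgs2. With backgrounds as scanned Irf5, Gimap5, Ciita, H2-DMb2, H2-Aa, S100a8, Pdcd1lg2, Xbp1, Ifitm1 and Nfkbiz were not called. With the scanner's log ratio Cxcl2, Cxcl3, Irf5, Gimap5, Siglecf and Gbp6 were not, and under median centring Smurf2, Irf5, Xbp1, Slc7a11 and Sirpa were not. A term that set replicates 1 to 3 against replicates 4 and 5 in every group raised the count to 2798. The direction in the called genes held in 1358 within replicates 1 and 2 and in 1359 within replicates 4 and 5. These genes were called on the same arrays, so that agreement is largely built in and is not a replication.

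**Figure D1:**
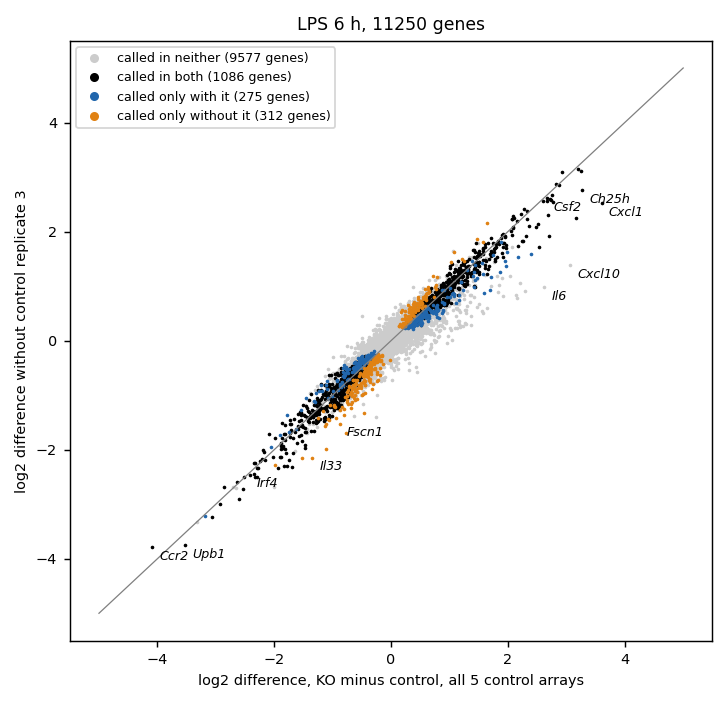
The log2 difference of knockout over control at LPS 6 h with all 5 control arrays (x axis) is plotted against the same difference without control replicate 3 (y axis) for all 11250 genes tested, coloured by whether the gene was called in both, in only 1 or in neither. The 1086 genes called both ways lie along the diagonal, while 275 were called only with the array and 312 only without it.

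The largest fall among the named genes was in Ccr2, the receptor for monocyte chemoattractants. Ccr2 read 0.77, 1.18, 0.67, 2.48 and 1.81 in knockout cells and 4.77, 4.50, 6.70, 5.39 and 6.02 in control cells. No array crossed over, and knockout replicates 4 and 5 were the nearest to the controls. The difference was -4.09 ± 0.53 (SE), or 17.1-fold lower, with an adjusted p of 8.55e-06, and it was 13.8-fold lower without control replicate 3. In bulk RNA of this kind, fewer cells of a type and less RNA per cell cannot be told apart. The Ccr2 promoter holds an ETS-IRF composite match, GGAANNGAA, shown in capitals with its surroundings because this is the class of site that IRF4 and PU.1 are known to share.
Ccr2, GRCm38.p6 chr9:124101952-124102040, plus strand: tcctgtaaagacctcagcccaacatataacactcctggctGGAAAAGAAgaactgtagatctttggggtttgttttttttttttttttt
The match starts 191 bases upstream of the annotated start of transcription, in sequence from RefSeq. As a description, 7.19% of all 9070 promoters of tested genes hold this motif on either strand, so a match alone is common.

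Vdr, the vitamin D receptor, was the most uniform of the large falls. It read -0.61, -0.50, -0.51, -0.45 and -0.88 in knockout cells and 1.80, 1.95, 2.14, 1.56 and 1.29 in control cells, with a gap between the groups wider than either group's range. The difference was -2.34 ± 0.24 (adjusted p 5.09e-07). Mab21l3 ran from 0.61 to 1.17 in knockout and from 2.31 to 4.17 in control cells, 6.10-fold (7.51-fold) lower. Upb1, an enzyme of pyrimidine breakdown, was 11.6-fold (13.5-fold) lower, Septin4 was 8.40-fold (9.46-fold) lower and Rnase6, a secreted antimicrobial ribonuclease, was 7.64-fold (7.98-fold) lower. For these 3, knockout replicates 4 and 5 were the highest of their group, at 3.06 and 2.45 for Upb1 against 0.44 to 0.66 in the other 3 knockout arrays. Further falls without overlap were in Vat1l (7.23-fold, 6.43-fold without it), Cdkn2b, a cyclin-dependent kinase inhibitor (5.06-fold, 5.44-fold without it), and Strip2 (5.04-fold, 5.69-fold without it). Siglecf, a sialic acid-binding receptor best known from eosinophils, was 5.06-fold (4.71-fold) lower, but with the scanner software's own log ratio the difference was -0.96 and the adjusted p 0.149. Each of these genes except Siglecf kept its call in every alternative other than the fixed slide block, where Upb1 (adjusted p 0.0558), Vdr (0.0625) and Strip2 (0.306) did not pass.

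Among 4 tested GIMAP genes, GTPases of immune cell survival, 2 were lower, where 5.88% of all genes were called lower. The list's median was -1.76 (-1.82 without control replicate 3) against -0.01 over all genes. Gimap1 read -1.53, -1.34, -1.72, -0.35 and -0.91 in knockout and 1.18, 1.05, 1.45, 1.82 and 1.27 in control cells, with no overlap and a difference of -2.52 ± 0.43 (adjusted p 0.000215). Gimap5 had the same size of difference, -2.54 ± 0.84, but its groups overlapped and its adjusted p was 0.0461. That call ended when control replicate 1, 4 or 5 or knockout replicate 1, 2 or 3 was left out, with adjusted p from 0.0629 to 0.119. Map3k14, which encodes the NF-kB-inducing kinase of the noncanonical pathway, was 2.87-fold (2.92-fold) lower (-1.52 ± 0.25, adjusted p 0.000164). It read -0.93 to -0.09 in knockout and 0.82 to 1.13 in control cells. In the list of NF-kB pathway genes as a whole, 3 of 28 were higher and 2 lower. The shares over all genes were 6.22% and 5.88%, and the list's median was 0.28. Without control replicate 3 the list's counts were 2 and 4 and its median -0.03, so both turned with that array. Nfkbiz, an inducible regulator of NF-kB target genes, was 3.23-fold (1.90-fold) higher. Nfkbiz lost its call without control replicate 3, 4 or 5 or knockout replicate 1, 2 or 3 (adjusted p 0.0600 to 0.116).

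Among genes of MHC class II presentation, Ciita, the master coactivator of class II transcription, read 1.09, 1.53, 0.96, 2.62 and 1.79 in knockout and 3.09, 2.95, 2.79, 3.02 and 3.05 in control cells. The controls were close together and all above every knockout array, for a difference of -1.38 ± 0.33, or 2.60-fold (2.69-fold) lower (adjusted p 0.00557). H2-DMa, a subunit of the peptide exchange factor, was lower on every array, at 2.06 to 2.65 against 3.23 to 3.82 (-1.27 ± 0.18, adjusted p 3.70e-05). Cd74, the invariant chain, was 2.33-fold (2.27-fold) lower with overlapping groups, and H2-DMb2 was 1.84-fold (1.86-fold) lower. Of the class II chains, H2-Aa was 1.83-fold (2.12-fold) lower (adjusted p 0.0406), and H2-Ab1, at 3.70 to 3.87 in knockout and 3.17 to 3.78 in control cells, did not pass (0.307). The probes of H2-Ab1 disagreed, from -0.33 to 0.21. Cd74 lost its call without control replicate 1 or 2 or knockout replicate 5 (adjusted p 0.0574 to 0.0628) and turned to 0.49 with the fixed slide block. H2-Aa lost its call when any of control replicates 1, 2, 4 and 5 or knockout replicates 1, 2 and 3 was left out (0.0671 to 0.116), and read 0.61 with the scanner's log ratio. Over the list, 6 of 21 tested members were lower and 2 higher (7 and 2 without control replicate 3), where 5.88% and 6.22% of all genes were called. The 2 that rose were Ctsl, a lysosomal protease, and Cd9, a tetraspanin. The list's median was 0.06 and turned to -0.15 under median centring, and with the fixed slide block the counts were 0 lower and 3 higher.

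Of the dendritic cell lineage genes, 4 of 25 tested were lower and 1 was higher, where 5.88% and 6.22% of all genes were called. The list's counts were the same without control replicate 3, and its median was -0.01 (-0.15 without it). With the fixed slide block the counts turned to 1 lower and 4 higher, and the median to 0.56. Of the 23 well above background on all arrays of both groups, 3 were lower and 1 higher. Cbfa2t3, a transcriptional corepressor, read 0.36, 0.49, 0.39, 0.13 and -0.38 in knockout and 2.50, 2.64, 2.95, 2.17 and 1.62 in control cells, 4.52-fold (4.09-fold) lower with no overlap (adjusted p 0.000347). Dpp4, the peptidase CD26, was 3.72-fold (4.40-fold) lower (0.00232), and Batf3, an AP-1 family factor and partner of IRF proteins, was 2.05-fold (2.20-fold) lower (0.0137). Batf3 lost its call without knockout replicate 2 or 3 (0.0566 and 0.0549). Sirpa, an inhibitory receptor found on the IRF4-dependent subset, was the member that rose, by 2.20-fold (2.17-fold). Sirpa lost its call without control replicate 4 or 5 or knockout replicate 1 or 2 (0.0503 to 0.0576). Zbtb46 (0.10), Irf8 (0.03) and Itgax (0.33) did not pass. Within the IRF family and its partners, Irf4 and Batf3 were joined by Irf5, a factor of inflammatory cytokine induction, which was 1.66-fold (1.63-fold) lower (0.0415; 0.0702 without control replicate 3). Irf5 lost its call on leaving out any of control replicates 1 to 4 or knockout replicates 1, 4 and 5 (0.0670 to 0.134). Irf1 was 3.26-fold higher with the outlying control and 2.25-fold, no longer called, without it (0.0286 and 0.102). It also lost its call without control replicate 4 or 5 or knockout replicate 1, 2 or 3.

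Of 29 tested genes of costimulation and maturation, 5 were lower and 2 higher both with and without control replicate 3, where 5.88% and 6.22% of all genes were called. The median was -0.12 (-0.24 without it). The counts were 1 lower and 2 higher with backgrounds as scanned, and 2 lower and 0 higher in the fit of the 10 arrays alone. With the fixed slide block 2 were lower and 4 higher, with a median of 0.35. Of the 27 well above background on all arrays of both groups, 4 were lower and 2 higher. Cd80 (-0.27), Cd86 (-0.12), Cd83 (0.14) and the migration receptor Ccr7 (-0.07) all missed the threshold, with adjusted p from 0.695 to 0.958. Without control replicate 3 the differences were -0.61, -0.73, -0.10 and -0.36, and none passed. Pdcd1lg2, the inhibitory ligand PD-L2, was 1.97-fold (2.17-fold) lower (0.0122), but its difference was 0.05 with the scanner's log ratio. Icosl, the ligand of ICOS on T cells, was 2.45-fold (2.15-fold) higher (0.00463).

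Tlr2, the receptor for bacterial lipoproteins, read 4.82, 4.88, 5.07, 4.41 and 4.45 in knockout and 3.33, 3.46, 1.68, 2.69 and 2.97 in control cells, 3.73-fold (3.06-fold) higher with no overlap (adjusted p 0.000191). Tlr4, the LPS receptor, read 1.70, 1.70, 1.77, 2.61 and 2.52 against 0.12, 0.05, 1.56, 0.62 and 0.81. Control replicate 3 was the nearest to the knockout arrays, so the 2.68-fold rise was 3.15-fold without it (0.000320 and 2.61e-05), and it turned to -0.49 with the fixed slide block. Irak3, an inhibitory kinase homologue of this pathway, was 2.23-fold (2.11-fold) higher, and Ticam2, the adaptor that carries TLR4 to TRIF, was 2.05-fold (2.25-fold) higher. In all, 6 of 24 tested members of the Toll-like receptor list were higher and 0 lower in limma (5 and 0 without control replicate 3), while 9 were higher and 3 lower at an unadjusted p under 0.05. Over all genes 6.22% were called higher. Of the 22 well above background on all arrays of both groups, 4 were higher and 0 lower. With the term for the replicate sets 8 of the 24 were called higher and 3 lower. Cd14, the LPS co-receptor, was higher by 1.76 but missed the threshold (0.0644).

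Some cytokine and chemokine genes were called both with and without control replicate 3. For others a rise shrank without it and was not called. Csf2, which encodes GM-CSF, was read above background in no control array, at -0.18 to 0.20, and in all 5 knockout arrays, at 2.92, 3.23, 3.82, 2.03 and 1.33. It was at least 5.74-fold higher, the bound set by the lowest measurable signal (fitted difference 2.66 ± 0.30, adjusted p 9.74e-07). At 6 h only the knockout group met the filter for Csf2, so its p-values and calls here and below are descriptions. Il12a, which encodes the p35 chain of IL-12, read 3.59, 3.79, 3.92, 3.64 and 3.04 in knockout and 1.94, 1.72, -0.26, 1.51 and 1.87 in control cells. It was 4.71-fold higher, and 3.56-fold without control replicate 3, with adjusted p of 9.59e-05 and 0.000137. Inhba, the activin A chain, was 3.86-fold higher (0.0417) but 2.77-fold and not called without that control (0.135). It lost its call too without control replicate 4 or 5 or knockout replicate 1, 2 or 3. Of 25 tested cytokine genes, 4 were higher and 0 lower in limma (9 and 1 at an unadjusted p under 0.05), and 2 and 2 without control replicate 3. Of the 18 that were well above background on all arrays of both groups, 1 was higher. Over all genes 6.22% were called higher.

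The neutrophil-attracting chemokines Cxcl1, Cxcl2 and Cxcl3 were higher in knockout cells on every array. Cxcl1 read 3.15, 3.26, 3.75, 3.01 and 2.83 in knockout and 0.37, 0.11, -4.73, 0.90 and 1.31 in control cells. The outlying control widened the gap: the rise was 12.2-fold with it (0.00646) and 5.75-fold without it (0.0175). Cxcl2 rose by 8.94-fold and 4.78-fold in the same order (0.00952 and 0.0310). Cxcl3 rose by 3.91-fold (0.0461) and was not called without control replicate 3 (2.57-fold, 0.156) or without any other array of the 10 except control replicate 5. All 3 lost their rise with the fixed slide block, at -0.07, -1.03 and -0.44. In the fit of the 10 arrays alone, Cxcl1 and Cxcl2 had adjusted p of 0.0538 and 0.0630. Ccl24, an eosinophil attractant, went the other way at 3.52-fold (3.55-fold) lower, with 3.09 to 4.91 in knockout and 5.57 to 6.09 in control cells (0.00900). Ccrl2, a nonsignalling chemerin receptor, was 5.76-fold higher, or 3.27-fold without control replicate 3, though its probes ranged from 1.03 to 2.52.

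Il6, Tnf, Il1b and Ifnb1, the canonical LPS-induced cytokines, were not called. Il6 read 8.02, 8.38, 8.71, 9.01 and 8.54 in knockout and 7.59, 7.57, -0.65, 7.19 and 7.88 in control cells. Every knockout array lay above every control array, but 4 controls were close below the knockout arrays and control replicate 3 was under even the unstimulated controls, which read 1.49 to 1.94. The difference of 2.62 ± 1.04 (adjusted p 0.105) became 0.98 (0.310) without control replicate 3. Tnf went from 0.91 to 0.22, Il1b from 1.28 to 0.50 and Ifnb1 from 0.55 to 0.01, with adjusted p between 0.307 and 0.579 before and between 0.788 and 0.992 after. Cxcl10 read 8.46, 8.72, 9.28, 7.79 and 7.32 against 8.27, 8.58, -1.45, 5.42 and 5.44, so that its groups overlapped (3.06, 0.102; 1.39 and 0.343 without that control). Cxcl10 was called higher without control replicate 1 (3.82, 0.0445) or 2 (3.895, 0.0346), and with the fixed slide block (6.16, 0.011). Cxcl9, an interferon gamma-induced chemokine, went the opposite way and was called only without the outlying array, 2.33-fold lower (0.000559; 0.0607 with it). Il10 and Il12b were not analysed here.

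Interferon-stimulated genes as a list showed how far 1 array could move a median. Of 37 tested, 0 were higher in limma and 1, Ifitm1, was lower by 2.05-fold (2.25-fold; 0.0165; lost without knockout replicate 1 or 3). Over all genes 6.22% were called higher and 5.88% lower. At an unadjusted p under 0.05 the list had 10 higher and 2 lower, and without control replicate 3 it had 0 and 2. The mean level of the list was 3.51, 3.71, 3.77, 3.39 and 3.03 on the knockout arrays and 3.62, 3.76, 0.03, 2.80 and 2.82 on the control arrays. Control replicate 3 sat far below all others. The list's median difference was 0.95 with that array and 0.28 without it, and with the fixed slide block 17 members were called higher. The number called higher was 2 without control replicate 1, 4 without control replicate 2 and 3 with the term for the replicate sets. Guanylate-binding and immunity-related GTPases behaved alike: 2 of 14 were called higher, where 6.22% of all genes were. They were Gbp6 (3.64-fold, or 1.26 on the log2 scale without control replicate 3) and Gbp8 (2.76-fold, 2.21-fold without it). The count was 0 without control replicate 3 (2 at an unadjusted p under 0.05), as the median went from 1.38 to 0.55. It was 5 without control replicate 1, 6 without control replicate 2, 0 without control replicate 4 and 6 with the term for the replicate sets. Gbp6 also lost its call without control replicate 4 or 5 or any of knockout replicates 1 to 4, and Gbp8 without control replicate 4. With the fixed slide block 10 members were called higher. Isg15, a ubiquitin-like modifier, was 1.38 higher (0.307) and 0.30 without the array (0.823). Its promoter shows what a classical interferon response looks like in sequence, with 3 overlapping matches to the interferon-stimulated response element core, AAANNGAAA, of which the middle one is in capitals. It starts 71 bases upstream of the annotated start.
Isg15, GRCm38.p6 chr4:156200841-156200929, minus strand: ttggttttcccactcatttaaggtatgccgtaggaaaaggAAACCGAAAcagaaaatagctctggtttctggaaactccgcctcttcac
This motif was held by 19 of 26 promoters of the list (73.1%) and by 8.24% of all promoters of tested genes.

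**Figure D2:**
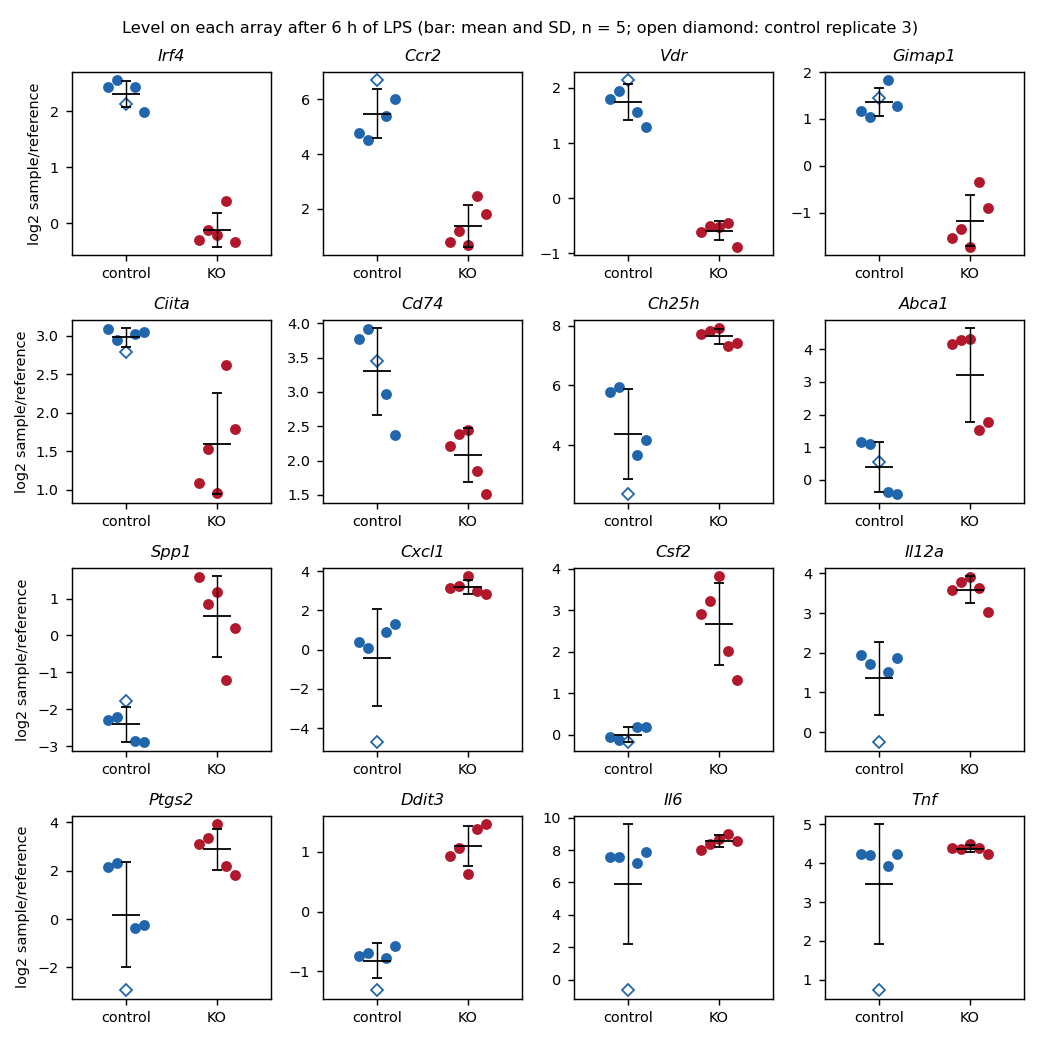
Log2 ratios of sample over reference at LPS 6 h on each of the 5 knockout and 5 control arrays are shown for 16 genes, with bars at the mean and SD of each group (n = 5) and control replicate 3 drawn as an open diamond. Irf4, Ccr2 and Vdr are lower and Ch25h and Csf2 higher in knockout cells with no overlap, while for Il6 and Tnf the open diamond, at -0.65 and 0.72, lies far below the other 4 control arrays.

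In the integrated stress response, phosphorylated eIF2 alpha favours translation of the factor ATF4 and so expression of genes for amino acid supply and endoplasmic reticulum stress. Transcripts of a list of its genes were mostly higher in knockout cells, while phosphorylation and translation were not measured. Of 24 tested members, 13 were higher and 1 lower, against 6.22% and 5.88% of all genes, with a median difference of 0.99 (-0.01 over all genes). Without control replicate 3 the counts were 13 and 0 and the median 0.94. The lowest count of members that rose in any alternative was 8, in the fit of the 10 arrays alone. Atf4 was the most even gene: it read -0.12, -0.11, -0.21, -0.12 and -0.08 in knockout and -1.45, -1.39, -1.14, -1.37 and -1.51 in control cells. Both groups were tight and well apart, for a 2.37-fold (2.46-fold) rise (adjusted p 7.58e-07). Ddit3, the proapoptotic factor CHOP, read 0.94, 1.07, 0.63, 1.38 and 1.46 against -0.74, -0.70, -1.32, -0.77 and -0.58 and was 3.78-fold (3.47-fold) higher (1.94e-06). Trib3, a pseudokinase that feeds back on ATF4, was 3.41-fold (3.19-fold) higher, and Chac1, a glutathione-degrading enzyme, was 6.63-fold (6.07-fold) higher (0.000116 and 5.65e-05). Chac1 read 0.53, 0.58, 0.31, -0.65 and -0.21 in knockout and -1.998, -1.82, -3.12, -3.16 and -2.99 in control cells. Asns, asparagine synthetase, was 4.85-fold (5.30-fold) higher (0.00306), Nupr1, a stress-induced chromatin protein, 5.58-fold (4.24-fold; 0.00516) and Slc7a11, the cystine importer, 1.96-fold (1.76-fold; 0.0104). Xbp1, of the parallel IRE1 arm, was 1.45-fold (1.32-fold) lower (0.0402), was not called without control replicate 3 (0.128), and lost its call on leaving out control replicate 1, 2 or 4 or knockout replicate 2, 4 or 5. It turned to 0.27 with the fixed slide block.

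ATF4 and C/EBP proteins are known to bind a composite element, TGATGNAA, and 4 promoters of this list are shown because they hold it, in capitals in the orientation found. The element was searched after the result of the list was known, and Asns, Nupr1 and Slc7a11 were chosen after their values were seen.
Asns, GRCm38.p6 chr6:7693210-7693272, minus strand: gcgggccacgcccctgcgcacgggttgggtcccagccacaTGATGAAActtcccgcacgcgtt
Chac1, GRCm38.p6 chr2:119351009-119351096, plus strand: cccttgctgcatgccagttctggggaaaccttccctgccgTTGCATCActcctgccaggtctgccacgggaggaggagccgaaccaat
Nupr1, GRCm38.p6 chr7:126625533-126625620, minus strand: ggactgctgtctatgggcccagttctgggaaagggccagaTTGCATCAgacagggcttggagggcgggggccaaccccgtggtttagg
Slc7a11, GRCm38.p6 chr3:50443632-50443719, minus strand: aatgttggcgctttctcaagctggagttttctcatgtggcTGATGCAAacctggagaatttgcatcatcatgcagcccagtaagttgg
The matches start 23, 193, 110 and 66 bases upstream of the annotated starts, and the Slc7a11 promoter holds another match 47 bases upstream, in lower case here. On either strand the element was in 7 of 23 promoters of the list (30.4%), in 4.34% of promoters of genes that rose, in 1.87% of those of genes that fell and in 2.28% of all.

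Cholesterol synthesis genes fell together. Of 23 tested members, 17 were lower and 0 higher in limma (19 and 0 at an unadjusted p under 0.05), where 5.88% and 6.22% of all genes were called. The list's median was -0.97, and 15 had all knockout arrays below all control arrays, where 4.53% of all genes did so. Without control replicate 3, 15 were lower and the median was -0.63, and the lowest count in any alternative was 10, in the fit of the 10 arrays alone. Pmvk, phosphomevalonate kinase, read -1.48, -1.51, -1.53, -0.67 and -0.70 in knockout and 0.26, 0.05, 0.25, 0.78 and 0.46 in control cells, 2.90-fold (2.96-fold) lower (1.19e-05). Sc5d, a late desaturase of the pathway, was 3.33-fold (2.75-fold) lower, Hsd17b7 2.36-fold (2.21-fold) and Hmgcs1, which makes the HMG-CoA that feeds the pathway, 2.01-fold. Hmgcs1 read -1.60, -1.70, -1.54, -2.04 and -1.80 in knockout and -0.71, -0.63, 0.13, -1.05 and -1.38 in control cells, so the groups did not overlap but control replicate 3 was the highest of all (1.74-fold without it, 0.00109). Hmgcs1 was not called with the fixed slide block (-0.33, 0.391). The classical sterol regulatory element, TCACNCCAC, searched after the result of the list was known, stood in its promoter.
Hmgcs1, GRCm38.p6 chr13:119690174-119690262, plus strand: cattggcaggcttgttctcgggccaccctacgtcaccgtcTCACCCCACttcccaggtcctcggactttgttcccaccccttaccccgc
It starts 137 bases upstream of the annotated start. Hmgcs1 was the 1 promoter of 16 in the list with these letters, which 1.10% of all promoters hold.

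Of 18 tested LXR targets and genes of lipid efflux, 3 were higher and 0 lower both with and without control replicate 3 (4 and 1 at an unadjusted p under 0.05). Over all genes 6.22% were called higher. Ch25h, which makes 25-hydroxycholesterol, read 7.73, 7.82, 7.92, 7.32 and 7.42 in knockout and 5.78, 5.94, 2.35, 3.66 and 4.17 in control cells. The knockout arrays were tightly grouped and the controls spread widely, with a rise of 9.61-fold (3.70e-05) and of 6.75-fold without control replicate 3. Abca1, the cholesterol efflux pump, read 4.18, 4.28, 4.33, 1.53 and 1.78 against 1.15, 1.09, 0.54, -0.39 and -0.46, 7.12-fold (7.31-fold) higher (0.00409). In both genotypes replicates 4 and 5 were the lowest for Abca1. Mylip, the ligase that degrades the LDL receptor, was 3.49-fold (3.30-fold) higher (0.000252). These were the 3 called genes of the list, whose median of 0.12 (0.25 without control replicate 3) turned to -0.08 under median centring. Oxidative phosphorylation genes had 14 of 48 lower and 0 higher, where 5.88% and 6.22% of all genes were called. At an unadjusted p under 0.05 the list's counts were 25 and 0, and 10 were called lower without control replicate 3. Sizes were small: Atp5o was 1.69-fold (1.58-fold), Cox5b 1.52-fold (-0.58 on the log2 scale without it) and Ndufa5 1.47-fold (1.38-fold) lower. The list's median was -0.41. Its count ranged from 5 to 30 over the alternatives. Glycolysis genes had 2 of 24 lower and 0 higher, with and without control replicate 3 (5 and 2 at an unadjusted p under 0.05). Over all genes 5.88% were called lower.

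**Figure D3:**
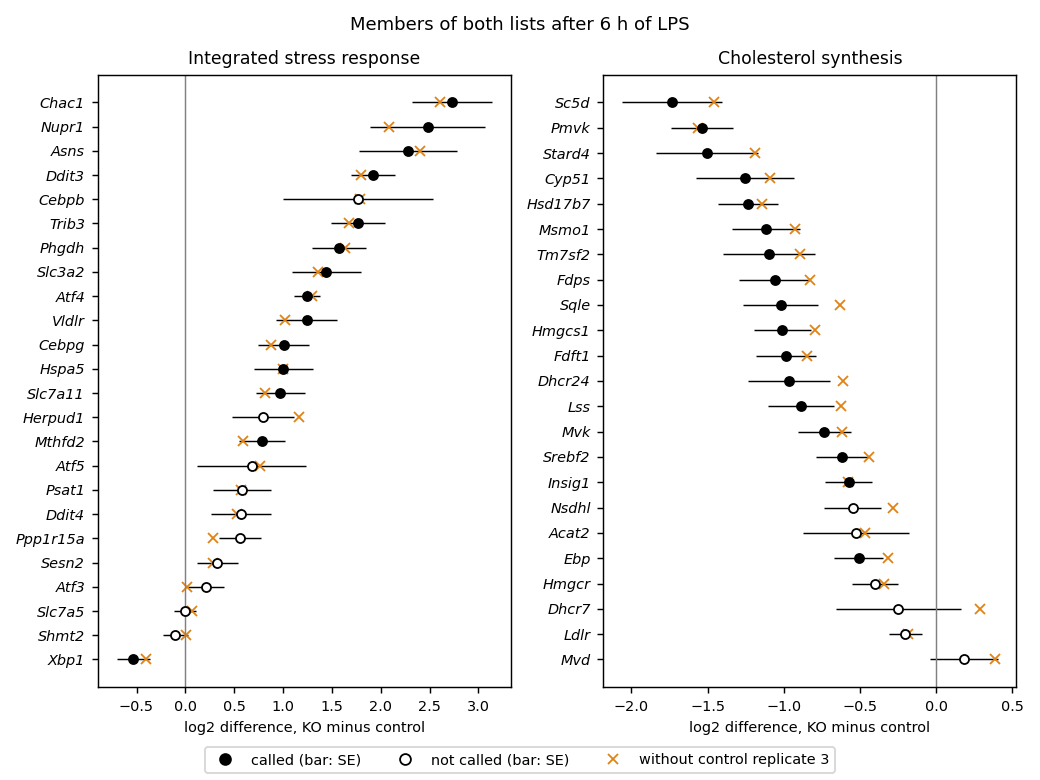
The log2 difference of knockout over control at LPS 6 h is plotted for the tested members of the integrated stress response and of cholesterol synthesis, with SE bars, filled points for called genes and orange crosses for the value without control replicate 3. Stress response members lie mostly to the right of 0 (13 called higher, 1 lower) and cholesterol synthesis members mostly to the left (17 called lower).

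Secreted and lipid-mediator genes changed in both directions. Spp1, osteopontin, read 1.58, 0.84, 1.18, -1.21 and 0.19 in knockout and -2.31, -2.21, -1.77, -2.87 and -2.90 in control cells, 7.60-fold (8.50-fold) higher (0.000600). Ptgs2, the inducible cyclooxygenase, was 6.49-fold higher with overlapping groups (0.00942; 3.77-fold and 0.0298 without control replicate 3), and 0.113 in the fit of the 10 arrays alone. Pla2g4a, the phospholipase that supplies its substrate, was 2.78-fold (2.44-fold) higher (0.000378). Alox15, a lipoxygenase, was below background on all 5 knockout and above it on all 5 control arrays, at least 2.78-fold lower. In the eicosanoid list 3 of 15 were higher and 3 lower, with and without control replicate 3, where 6.22% and 5.88% of all genes were called. Of the 12 well above background on all arrays of both groups, 2 were higher and 1 lower. Adam8, a membrane metalloprotease, was 4.57-fold (4.00-fold) lower and Mmp9, a gelatinase, 2.43-fold (2.20-fold) lower. Mmp9 read -1.08 to -0.85 in knockout and -0.04 to 0.88 in control cells, with no overlap (0.000422).

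Other large rises without overlap were in genes of diverse roles. Bex1, an adaptor best known from neurons, was above background on all 5 knockout and no control array and at least 8.999-fold higher. Epha4, an ephrin receptor kinase, read 3.42, 3.72, 3.80, 1.55 and 0.94 in knockout and -1.14 to -0.11 in control cells, 9.58-fold (8.68-fold) higher by its brighter probe. That probe was well above background on only 2 of the 5 control arrays, so the fold rests partly on signal near background, and its other probe gave 1.85 on the log2 scale. Sgk1, a serum- and glucocorticoid-regulated kinase, was 7.29-fold (7.22-fold) higher, Clmp, an adhesion protein, 6.85-fold (5.81-fold), Slc1a2, a glutamate transporter, 6.76-fold (6.38-fold), Fstl1, a secreted glycoprotein, 6.70-fold (5.98-fold), and F11r, the junctional adhesion molecule A, 6.40-fold (4.94-fold). Their adjusted p ran from 9.74e-07 for Slc1a2 to 0.00613 for Clmp. Lysosomal genes had 5 of 38 higher and 0 lower both with and without control replicate 3 (8 and 1 at an unadjusted p under 0.05; 6.22% of all genes were called higher), and 11 higher and 1 lower with the term for the replicate sets. Ctso, a cathepsin, was 2.11-fold (2.04-fold) higher and Ctsl 4.43-fold (4.56-fold). Ctsl lost its call without control replicate 4 or 5 or knockout replicate 1, 2 or 3 (0.0523 to 0.0633).

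Markers of other cells were read beside these results, where 6.22% of all genes were called higher and 5.88% lower. Among 13 tested neutrophil markers 4 were lower and 0 higher (3 without control replicate 3), with a median of -1.28. Members such as Ltf and Ngp passed the filter through the control group alone, so these are descriptions. Of the 7 well above background on all arrays of both groups 2 were lower, with a median of -0.51. The mean level of the list was 0.86 to 1.80 on knockout and 1.82 to 2.85 on control arrays. Ltf, lactoferrin, and Ngp, a granule protein, were below background on every knockout array and at least 3.76-fold and 2.56-fold lower. S100a8, an abundant calcium-binding protein of granulocytes, read 0.31 to 3.55 in knockout and 2.57 to 6.50 in control cells (0.0363; 0.0512 without control replicate 3). It also lost its call without control replicate 4 or 5 or knockout replicate 1, 2 or 3. Of the 18 neutrophil genes on the array, 7 were above background on all 10 arrays and 2 on none. Among 20 tested macrophage markers 2 were higher and 0 lower with and without control replicate 3 (8 and 0 at an unadjusted p under 0.05, and 6 higher with the term for the replicate sets), with a median of 0.62 and list levels of 2.32 to 3.31 and 1.71 to 3.18. Trem2, a lipid receptor of macrophages, was the clearest at 2.23-fold (2.43-fold) higher, with 3.18 to 3.47 in knockout and 1.29 to 2.71 in control cells (0.00168). Of 7 tested mast cell, basophil and eosinophil markers 2 were lower (1 without control replicate 3), at list levels of 1.11 to 1.40 and 1.61 to 2.11. Only 4 of the 7 were well above background on all arrays of both groups, and 1 of these was lower. No more than 1 gene in each direction was called among 10 plasmacytoid dendritic cell, 7 B cell, 8 T and NK cell, 9 erythroid and megakaryocyte and 13 stromal markers. Without control replicate 3 the same held except for stromal markers, of which 2 were called higher. With the term for the replicate sets 7 neutrophil markers and 3 mast cell, basophil and eosinophil markers were called lower, as were 3 erythroid and megakaryocyte markers. In that fit 2 plasmacytoid, 2 T and NK cell and 2 stromal markers were called higher. The part of such cells in the results above was not tested.

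Promoters of all called genes were searched for the same letters. The interferon-stimulated response element core was in 10.5% of 553 promoters of genes that rose, in 8.22% of 535 of genes that fell and in 8.24% of all 9070. The ETS-IRF composite was in 7.23%, 7.10% and 7.19% in the same order, the AP-1 site TGANTCA in 6.87%, 6.17% and 5.56%, and the cyclic AMP response element TGACGTCA in 4.16%, 3.18% and 2.98%. The C/EBP-ATF element, searched after the stress response result was known, was in 4.34%, 1.87% and 2.28%, and the sterol regulatory element in 1.27% of the higher, 8 of 535 of the lower and 1.10% of all genes. Both strands were searched from 250 bases before to 50 after each start. The response element core and the composite overlapped each other in 21 promoters.

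Most of the differences at 6 h had a counterpart at the other times, which were measured on separate arrays in the same fit. Knockout and control cells differed in 1585 genes (14.1%) without stimulation and in 1736 (15.4%) after 24 h of LPS. Of the 1361 genes called at 6 h, 674 were called in the same direction unstimulated and 780 at 24 h, 483 at both, and 5 and 2 in the opposite direction. A further 384 were called at 6 h alone, but for only 6 of these did the difference change significantly from the unstimulated one. Ch25h was higher by 4.27 unstimulated, 3.26 at 6 h and 4.23 at 24 h, and Ccr2 lower by 3.40, 4.09 and 3.49, with no called change between times. Vdr likewise differed by -2.04, -2.34 and -2.09.

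The genotype difference itself changed between unstimulated cells and 6 h in 49 genes (0.436%), or 81 without control replicate 3 (0.720%). Slc1a2 was at 0.13 ± 0.09 (SD, n = 5) in knockout and 0.35 ± 0.13 in control cells without stimulation, while the difference at 6 h was 2.76 (change of the difference 2.98 ± 0.44, adjusted p 0.000782) and that at 24 h was 2.83. Csf2 showed no unstimulated difference (0.00) and little at 24 h (0.35, 0.507). Its difference at 6 h exceeded the unstimulated one by 2.66 (0.00241) and the 24 h one by 2.32 (0.0293). Stk38l, a kinase of the NDR family, had the same course, with differences of 0.01, 2.07 and 0.46 and changes of 2.06 (0.000737) and 1.61 (0.0293). For Traf1, an adaptor of TNF receptors, Gbp2 and the nucleic acid sensor Zbp1, knockout cells were lower before stimulation, by 2.25, 1.81 and 1.91, and not called different at 6 h. Icosl crossed over, from -1.23 to 1.29 (change 2.53, 0.00440). Flvcr2, a transporter of the heme exporter family, went the other way, 2.58 higher in unstimulated knockout cells and 0.37, not called, at 6 h (change -2.21, 0.00463). Clec9a, a receptor of cross-presenting cells, also lost its unstimulated excess, but it was below background on all 10 arrays at 6 h.

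Between 6 h and 24 h the difference changed in 12 genes (0.107%), or 30 without control replicate 3 (0.267%). These calls were fragile: in limma the count was 0 without knockout replicate 2 or 3 (664 and 641 at an unadjusted p under 0.05), 1 without control replicate 4 and 4 without knockout replicate 1. Csf2 kept its call in 6 of the 10 fits that left out 1 array, with the 4 losses being control replicate 4 and knockout replicates 1, 2 and 3. Ttc39c kept it in 8 (lost without knockout replicate 2 or 3), and Stk38l and Smurf2, a ubiquitin ligase of the TGF-beta pathway, in 7 each (lost without those or control replicate 4). Against unstimulated cells, by contrast, Slc1a2, Csf2, Stk38l, Traf1, Gbp2, Zbp1, Icosl and Flvcr2 kept their calls in all 10. Tcf7l2, a Wnt pathway factor, kept its change of -2.04 in 6 and lost it without control replicate 1 or 2 or knockout replicate 2 or 4.

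**Figure D4:**
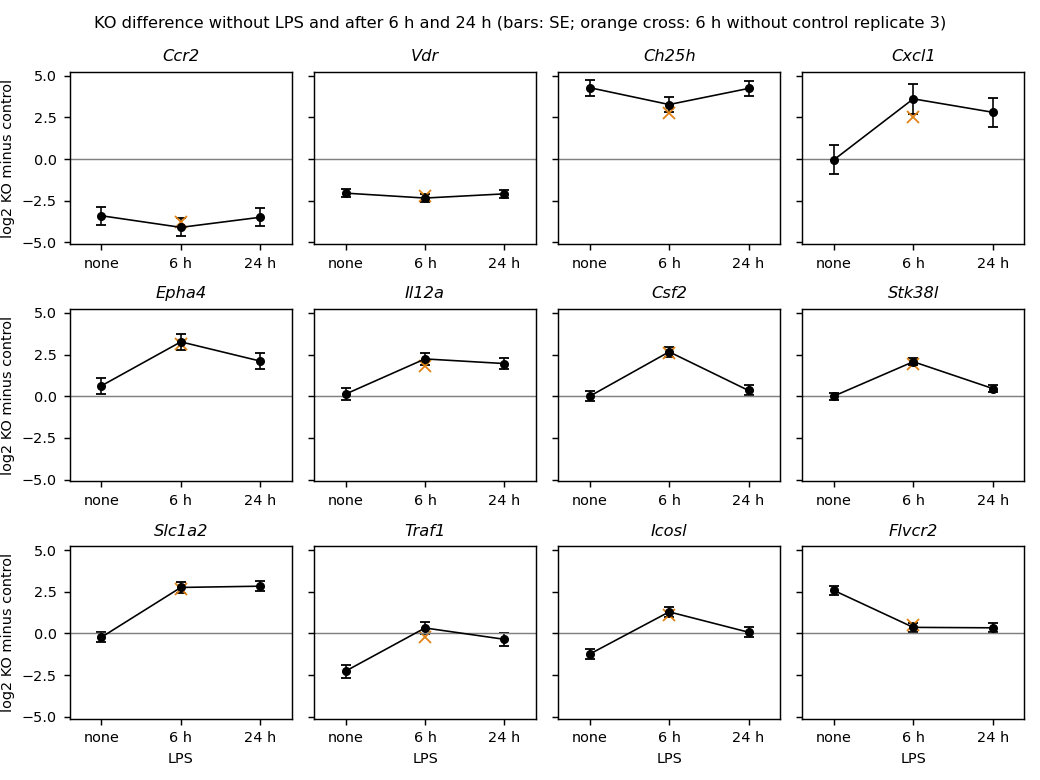
The log2 difference of knockout over control is plotted for 12 genes without stimulation, at LPS 6 h and at LPS 24 h, with SE bars and an orange cross for the 6 h value without control replicate 3. Ccr2, Vdr and Ch25h hold their difference at all 3 times, Csf2 and Stk38l differ at 6 h, and Traf1 and Flvcr2 differ most before stimulation.

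Further genes missed the threshold in the main fit and passed when the outlying control was left out. Some also passed in limma fits that kept it. Tgfbi and Coch did so without knockout replicate 4 (adjusted p 0.038 and 0.0307). Fgl2 and Ebi3 did so under median centring (0.0421 and 0.0176), and Radx and Tmem71 with the scanner's log ratio (0.034 and 0.0213). Herpud1 passed with the fixed slide block (0.0406). In knockout cells Fgl2, a secreted fibrinogen-like protein, read 3.63 to 4.71, and in control cells 7.06, 7.33, 2.97, 5.15 and 5.16. It was 4.47-fold lower without control replicate 3 (0.00224) and 2.86-fold lower, not called, with it (0.0731). Il33, an alarmin cytokine, was 4.43-fold lower (0.00928; 0.207 with it), Fscn1, the actin bundler of mature dendritic cells, 2.87-fold lower (0.000911; 0.223) and Ebi3, a chain of IL-27 and IL-35, 1.82-fold lower (0.00389; 0.142). Coch, a secreted protein best known from the inner ear, did not differ without stimulation beyond the spread (0.17 in knockout, 0.13 in control cells) and was 2.69-fold lower in knockout cells at 6 h (2.22e-05; 0.0517 with it). Tgfbi, a matrix protein induced by TGF-beta, was 4.48-fold higher (0.00596; 0.0531), Radx 2.72-fold, Tmem71 2.28-fold and Herpud1, a component of endoplasmic reticulum-associated degradation, 2.25-fold. For Radx and Tmem71, control replicate 3 was the highest of the 10 arrays.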

How the data were processed

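The 30 arrays are 2-colour Agilent mouse arrays. Per the file headers, the authors' deposited scanner files came from Feature Extraction 10.7.3.1 and hold a median intensity and local background for each spot, and a log10 ratio that the scanner software had background-subtracted and dye-normalised. A table of log2 ratios deposited by the authors was used as an alternative, and the submitters' processing notes name limma without a version. Here local backgrounds marked non-uniform by the scanner were replaced, intensities were corrected with normexp (offset 50) and ratios were normalised by loess within each array. They were then fitted with lmFit and eBayes in limma 3.58.1 (R 4.3.3) over all 30 arrays, 1 mean per group.

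Control spots were left out. Of the 41174 probes, 18223 could not be named. A gene was tested on its brightest probe if that probe was well above background on all arrays of at least 1 group, and was called at a Benjamini-Hochberg adjusted p under 0.05 over all 11250 genes. A fold given as "at least" sets the bright group's mean against the higher of the dim probe's own signal and the lowest signal well above background. Differences are knockout minus control, with the standard error of the fit. On simulated data with 11225 genes, the comparison at 6 h called 40% of 50 genes changed by 0.5 on the log2 scale. It called 72% of those changed by 1 and 98% of those changed by 2, with 10 false calls. The simulated noise was independent between genes and arrays. It held no outlying array, slide effect or replicate-set effect, so these rates may not hold for the real arrays.

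The genes named are the 12 largest rises and falls among called genes whose groups did not overlap, up to 8 each way called only without control replicate 3, up to 4 called members per gene list and 2 in the other direction, a set of key genes, and the 6 largest each way for each change of the difference between times. Unnamed gene models were passed over. The comparison, gene lists and key genes were chosen with earlier results of these data known. Itgax, Asns, Nupr1 and Slc7a11 lie outside the rule. Alternatives changed the background, the scaling, the filter, the choice of probe, the slide and replicate terms, and the arrays included.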

Additional observations from a re-analysis of the deposited data

Results flagged for a closer look

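Among 236 groups of 5 arrays, taken from the genes named, 28 had an array whose gap to its nearest neighbour was large for the group's range. Chance gives about 1 in 20 for independent groups, but these groups share the same arrays. Some of the genes were named because they were called only without control replicate 3. The counts are therefore descriptions. In 24 of these the array was control replicate 3. It was the lowest control for Cxcl1 (-4.73), Il12a (-0.26), Inhba (-0.21), Cxcl3 (3.82), Ddit3 (-1.32), Il6 (-0.65), Tnf (0.72), Il1b (3.18), Ifnb1 (0.020), Cxcl9 (0.20) and Ccl22 (3.46). It was also the lowest for Cd80 (1.80), Cd86 (1.82), Isg15 (-1.15), Irf8 (1.90), Il33 (-2.997), Ebi3 (3.00), Traf1 (2.80), Gbp2 (1.89), Zbp1 (2.02) and Ttc39c (0.34). For Radx (2.24), Tmem71 (2.57) and Cisd1 (0.15) it was the highest control. The remaining 4 were control replicate 5, highest for Rnase6 (6.18), knockout replicate 4, highest for Hsd17b7 (-1.10) and Ccr7 (5.10), and knockout replicate 5, lowest for Gbp8 (2.33).

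The knockout difference at 6 h departed from that of unstimulated cells by limma's test of the change itself. It was larger by 2.98 for Slc1a2, 2.66 for Csf2, 2.58 for Traf1, 2.53 for Icosl, 2.42 for Gbp2, 2.39 for Zbp1, 2.06 for Stk38l and 1.79 for Ttc39c. The change was -2.21 for Flvcr2, -2.04 for Tcf7l2, -1.81 for Dixdc1, -1.35 for Clec9a and -1.26 for Cisd1. Against 24 h it was 2.32 for Csf2, 1.89 for Ttc39c, 1.81 for Glcci1, 1.61 for Stk38l, 0.88 for Smurf2, 0.81 for Gtpbp4, -0.88 for Ndufa5 and -1.17 for Dynll1. Each of these 8 changes lost its call in 2 to 7 of the 10 fits that left out 1 array.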

How the results depend on the processing

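Of the 118 genes named, 118 kept their direction and side of the threshold with the authors' deposited log2 ratios, 112 with the slide as a random block, 111 with median centring and 99 in the fit of the 10 arrays alone. With the slide as a fixed block 75 did, 34 lost their call, 3 gained one and 6 turned: Cxcl1 to -0.072, Cxcl2 to -1.03, Cxcl3 to -0.44, Tlr4 to -0.48, Cd74 to 0.49 and Xbp1 to 0.27. In that fit the knockout 6 h group is tied to the other groups through knockout replicate 1 alone. With the scanner software's log ratio H2-Aa turned to 0.61 and Pdcd1lg2 to 0.051. The causes were not tested.

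The count of genes called at 6 h was 805 under median centring and 723 in the fit of the 10 arrays alone, against 1361, and ran from 978 to 1454 when 1 array was left out. With the replicate number as a block it was 2729, and it was 2798 once replicates 1 to 3 were set against replicates 4 and 5 by a term of the fit. Same-numbered arrays of the 2 genotypes correlated in their deviations at 0.402, 0.71, -0.112, 0.679 and 0.71, so the numbers were not taken as pairs by the rule that every pair must correlate. The rule failed at replicate 3 alone. Arrays of other numbers correlated as highly, at 0.402 to 0.739 for knockout replicates 1 to 3 with control replicates 1 and 2 and 0.597 to 0.786 among replicates 4 and 5, against -0.782 to -0.491 between these sets. The change of the knockout difference from unstimulated cells was called in 35 to 81 genes when 1 array was left out, in 143 without the later slide, in 154 with the replicate block, in 174 with the replicate-set term and in 28 with backgrounds as scanned, against 49. The change from 24 h was called in 0 to 30 genes when 1 array was left out, against 12. It was called in 23 without the later slide, in 58 with the replicate block, in 73 with the replicate-set term, in 31 with Cy5 alone, in 7 with backgrounds as scanned, in 4 with the scanner's log ratio and in 1 each with the random slide block and median centring. The fixed slide block gave 5670, and there it rests on 1 knockout array of 24 h. Probes near background limit folds to bounds, and 5 arrays a group limit the calls for differences of 0.5 or less.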
